A study of Mus musculus with 8 samples.

Results

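The comparison described here set vascular endothelial cells sorted from the cochlea against vascular endothelial cells sorted from the vestibular organs of newborn mice. It rests on 2 of the 8 mRNA-seq libraries of the study, 1 per organ, so no difference between the organs has a replicate check and no test between them is possible. Each gene was described by the log2 ratio of its cochlear value over its vestibular value, and a positive ratio means a higher value in the cochlear library. The ratio was taken for the 11782 of 15275 genes whose higher value was at least 100, and a gene was counted as different when the values were at least 4-fold apart. Both libraries came from ICR mice, an outbred albino stock, at postnatal day 0 per the labels. Inner ears were dissociated to single cells and sorted by flow cytometry after staining with antibodies against CD326 (encoded by Epcam), CD49f (Itga6) and CD34 (Cd34). The other 6 libraries held epithelial cells (called sensory in their titles), mesenchyme and neurons of each organ, from mice of the same stock and age. How many animals were pooled for each library, and which antigen levels defined the endothelial gate, are not given in the sources used here.

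Endothelial cells line every blood vessel, and in the inner ear they form part of the blood-labyrinth barrier, where tight junctions and selective transporters separate blood from the fluids and tissues around hair cells. The richest bed is the stria vascularis of the cochlear lateral wall, a secretory epithelium woven around capillaries that keeps the endolymph high in potassium. Vestibular organs have their own vessels beneath the sensory patches and the secretory dark cells.

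The values are a normalized signal per gene. Sorted by size, they were identical in all 8 libraries, running from a floor of 20, at which 2058 genes stood in each library, to 203006, around a median of 374.4. The depth of each library is therefore unknown and no counting error can be attached to a value. A fold against a value of 20 is a lower bound. Since a library is a mixture, fewer cells of a type and less RNA per cell cannot be told apart.

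Endothelial markers were high in both libraries. Cdh5, which encodes the adherens junction protein VE-cadherin, had a value of 67385 in cochlear endothelium and 28960 in vestibular endothelium, against at most 2598 in the other 6 libraries. Cd93, a glycoprotein of the endothelial surface, had 58899 in cochlear endothelium and 109100 in vestibular endothelium, with 4021 as the next highest value. The sorting antigen gene Cd34 stood at 40862 in cochlear endothelium and 22463 in vestibular endothelium. Calcrl, the receptor subunit for adrenomedullin and calcitonin gene-related peptide, also had both of its highest values in endothelium, but there the organs were far apart, with 3950.3 in cochlear cells and 82226 in vestibular cells. Epcam, which marks epithelial cells, had 62.9 in cochlear endothelium and 987.1 in vestibular endothelium, against 14253 in cochlear epithelial cells and 21678 in vestibular epithelial cells. All 46 genes of a pan-endothelial list passed the filter, and their summed value was 571627 in cochlear endothelium and 523882 in vestibular endothelium. Both libraries thus carried the endothelial label, and the vestibular one also carried more of the epithelial antigen.

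The endothelial pair was further apart than any other pair. At least 4-fold differences were counted for 567 genes higher in cochlear endothelium, which is 4.81% of the genes compared, and for 750 genes higher in vestibular endothelium, which is 6.37%. In either direction this was 11.2% of genes, against 3.43% for the pair of epithelial cells, 2.09% in mesenchyme and 5.62% in neurons. The Spearman correlation of the values across genes was 0.877 for the endothelial pair, 0.96 for epithelial cells, 0.965 for mesenchyme and 0.922 for neurons. The vestibular endothelial library was closer to the vestibular neuron library (0.888) than to its cochlear counterpart. These are descriptions of single pairs of libraries, and the difference between cell types was not tested.

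The direction of the endothelial ratio followed the base composition of the transcripts. GC content is the share of G and C bases in a transcript, here the longest of each gene. Across 11659 genes the Spearman correlation of the endothelial ratio with GC content was 0.651, and with transcript length it was -0.307. In the lowest of 10 equal bins of GC content, up to 41.4%, the median log2 ratio was -1.32, and in the highest bin, from 57.8% upward, it was 1.29. The lowest and highest bins had medians of -0.63 and 0.81 in neurons, while in epithelial cells they ran the other way, at 0.26 and -0.14. Set against the mean of all 8 libraries, the vestibular endothelial library leaned toward AT-rich transcripts (correlation with GC content -0.5), as did the vestibular neuron library (-0.39), and the other 6 lay between 0.09 and 0.24. A GC gradient of this kind belongs to the whole library, so most ratios below are followed by the ratio after subtraction of the median ratio of genes with like GC content and then like length, called the adjusted ratio. Genes at least 4-fold apart after this adjustment numbered 163 higher in cochlear endothelium (1.4% of 11659) and 584 higher in vestibular endothelium (5.01%). The adjustment was chosen after the data had been seen, and it also removes any difference between the vessels that itself runs with GC content.

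**Figure D1:**
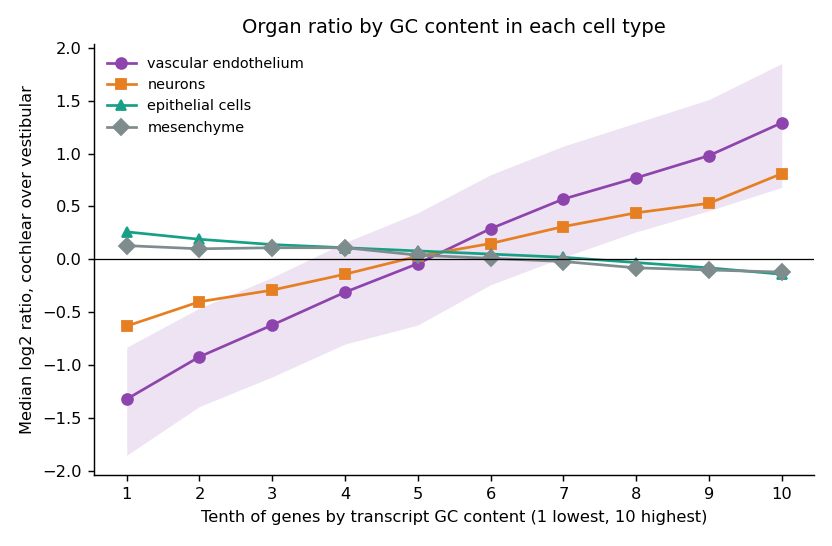
Median log2 ratio, cochlear over vestibular, in 10 equal bins of genes ordered by transcript GC content, with 1 line per cell type and the quartiles of vascular endothelium shaded. The endothelial line climbs through 0 between bins 5 and 6 and the neuron line has the same direction, while those of epithelial cells and mesenchyme slope slightly down.

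To look at the vessels themselves, genes led by endothelium were set apart. A gene was taken as endothelium-enriched when the mean log2 value of both endothelial libraries was at least 2 above the highest such mean in the other 3 cell types, a choice that favours neither organ. There were 437 of these genes. Their median log2 ratio was 0.29 (quartiles -0.79 and 1.23), 250 of them (57.2%) had the higher value in cochlear endothelium, 39 were at least 4-fold higher there (8.92%) and 26 were at least 4-fold higher in vestibular endothelium (5.95%). The Spearman correlation of the ratio with GC content was 0.78 here, against 0.65 over all genes. In the GC-richest bin of 109 genes, of 4 equal bins, 31 were at least 4-fold higher in cochlear endothelium and 1 in vestibular endothelium, and in the GC-poorest bin the counts were 0 and 17. After the adjustment the median was 0.02, and 6 genes were at least 4-fold higher in cochlear endothelium against 10 in vestibular endothelium.

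**Figure D2:**
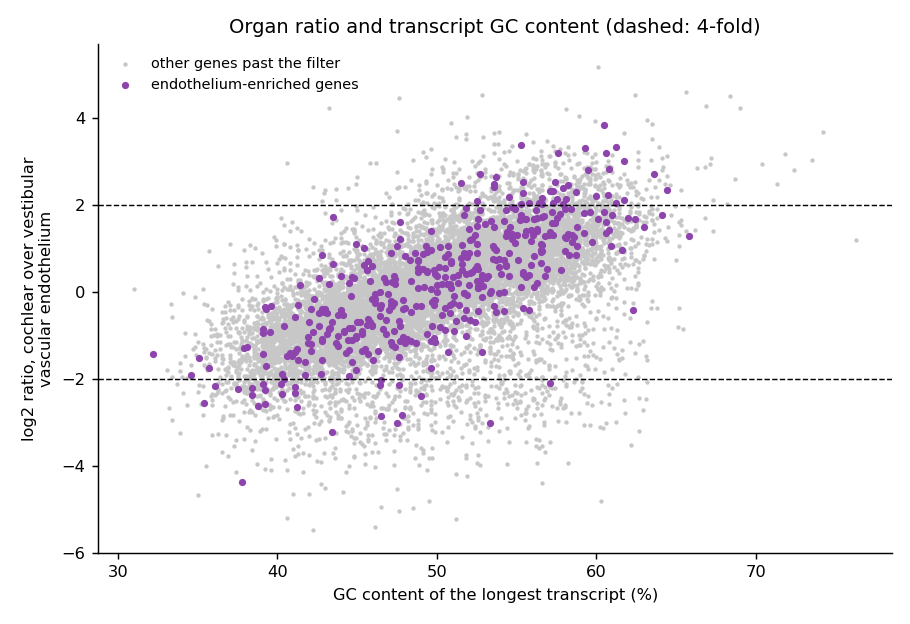
Log2 ratio of cochlear over vestibular vascular endothelium (y axis) against GC content of the longest transcript in percent (x axis), with 1 point per gene past the filter and endothelium-enriched genes in purple. The purple points follow the slope of all genes, and a further cloud of grey points lies below -2 at every GC content.

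Among the endothelium-enriched genes higher in the cochlea, Cldn5 had the largest deposited ratio. It encodes claudin-5, the main claudin of vascular tight junctions. The gene spans chr16:18776847-18778262 (GRCm38) and its value was 26900 in cochlear endothelium and 1859.5 in vestibular endothelium, 14.5-fold apart (log2 3.85, adjusted 2.32), and no other library exceeded 1057. The gene listed as 8430408G22Rik, now Depp1, a decidual protein induced by progesterone, was next, with 2568 in cochlear endothelium and 244.8 in vestibular endothelium (log2 3.39, adjusted 2.46). Tie1, an orphan receptor of the angiopoietin system, had 31914 in cochlear endothelium and 3459.8 in vestibular endothelium (log2 3.21, adjusted 2.17). All 3 stayed at least 4-fold apart on the adjusted scale, as did S1pr4, a sphingosine-1-phosphate receptor, with 259.9 in cochlear endothelium and 26.0 in vestibular endothelium (adjusted 2.05). Neurl3, a ubiquitin ligase, had 342.5 in cochlear endothelium and 51.9 in vestibular endothelium (log2 2.72, adjusted 2.0). The remaining gene at this level was Samsn1, an adaptor of haematopoietic cells, at 149.5 in cochlear endothelium and 45.5 in vestibular endothelium, which came in only through the adjustment (log2 1.72, adjusted 2.42).

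Further large ratios were smaller once composition was taken into account. Plvap, whose product forms the diaphragms of fenestrae and caveolae, had 10319 in cochlear endothelium and 1116 in vestibular endothelium (log2 3.21, adjusted 1.65). Plxnd1, a semaphorin receptor that guides growing vessels, had 82226 in cochlear endothelium and 11477 in vestibular endothelium (log2 2.84, adjusted 1.55). N4bp3, a Nedd4-binding protein, had 3662 in cochlear endothelium and 358.1 in vestibular endothelium (log2 3.35, adjusted 1.79). Other vessel genes shared this direction. Nos3, the endothelial nitric oxide synthase, had 6601 in cochlear endothelium and 1197 in vestibular endothelium (log2 2.46, adjusted 1.31). Esam, an endothelial adhesion molecule of tight junctions, had 14471 in cochlear endothelium and 2308 in vestibular endothelium (log2 2.65, adjusted 1.81). Rasip1, a Ras-interacting protein needed for vessel lumens, had 10853 in cochlear endothelium and 1659.8 in vestibular endothelium (log2 2.71, adjusted 1.18), and Egfl7, a matrix-bound factor secreted by endothelium, had 15679 in cochlear endothelium and 3146 in vestibular endothelium (log2 2.32, adjusted 1.17).

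Calcrl, at chr2:84330626-84425411 (GRCm38), had the largest deposited ratio toward vestibular endothelium among the endothelium-enriched genes. Its values in the endothelial libraries were 20.8-fold apart (log2 -4.38, adjusted -2.86). Ramp2, which encodes the partner that makes CALCRL an adrenomedullin receptor, lay the other way, with 6876 in cochlear endothelium and 2029.8 in vestibular endothelium (log2 1.76, adjusted 0.64). Esm1, the proteoglycan endocan of sprouting tip cells, had 400.5 in cochlear endothelium and 3758 in vestibular endothelium (log2 -3.23, adjusted -2.53). Eogt, an enzyme that adds N-acetylglucosamine to EGF repeats of secreted and membrane proteins such as Notch receptors, had 7231 in cochlear endothelium and 52166 in vestibular endothelium (log2 -2.85, adjusted -2.46). Rtp4, an interferon-inducible gene, had 239.6 in cochlear endothelium and 1258 in vestibular endothelium (log2 -2.39, adjusted -2.54). Calcrl, Esm1, Eogt and Rtp4 remained more than 4-fold apart after the adjustment, as did the weakly measured Lancl3, a LanC-like protein (77.8 in cochlear and 631.1 in vestibular endothelium, adjusted -2.87), Magee2, of the MAGE family (65.1 in cochlear and 458.3 in vestibular endothelium, adjusted -2.84), and Astl, a protease best known from oocytes (44.1 in cochlear and 355.8 in vestibular endothelium, adjusted -3.73). Other genes of this group lost most of the ratio. Samd9l, an interferon-inducible antiviral gene, had 655.4 in cochlear endothelium and 4069 in vestibular endothelium (log2 -2.63, adjusted -1.11), St8sia6, a sialyltransferase, had 86.1 in cochlear endothelium and 541.0 in vestibular endothelium (log2 -2.65, adjusted -1.09), and Cav2, which encodes caveolin-2, had 2621 in cochlear endothelium and 12400 in vestibular endothelium (log2 -2.24, adjusted -0.88).

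**Figure D3:**
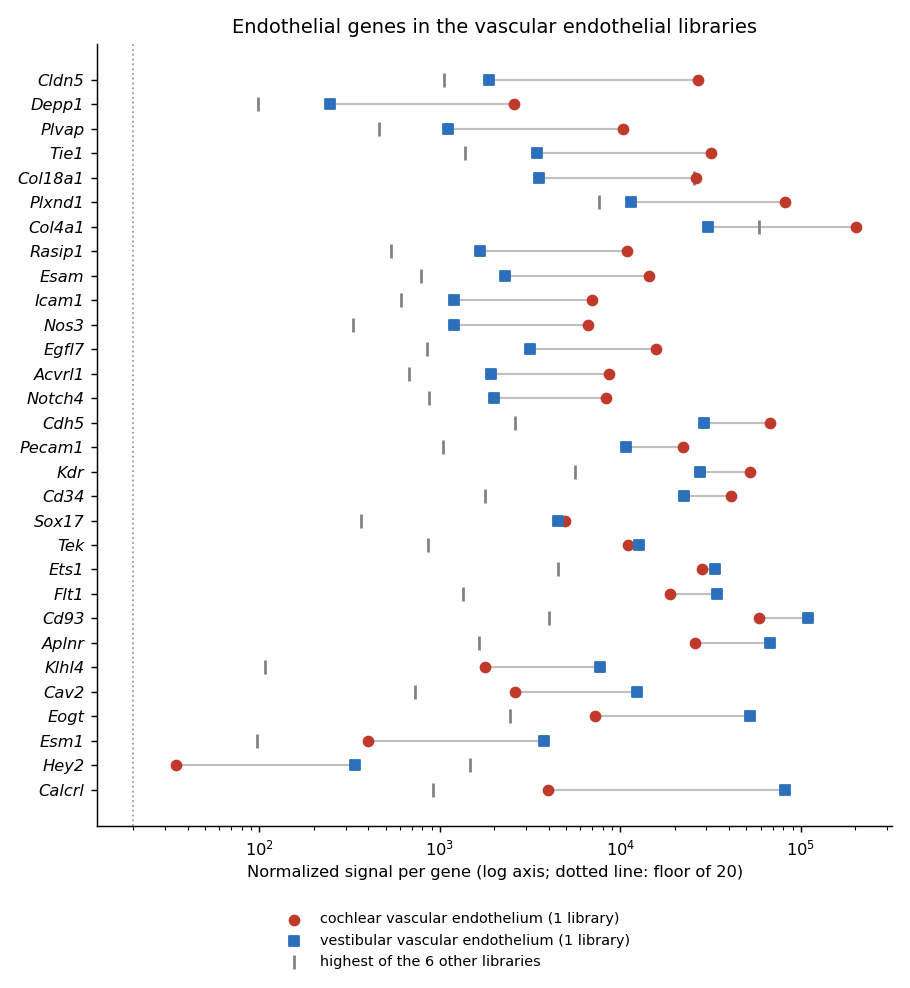
Normalized signal per gene (log axis) of 30 vascular genes in cochlear (red circles) and vestibular (blue squares) endothelium, ordered by their log2 ratio, with the highest of the 6 other libraries as a grey tick and the floor of 20 dotted. The genes were picked for display after their values were seen, and core identity genes such as Sox17, Tek and Ets1 lie close together in the middle.

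The core endothelial genes held ratios on both sides. Of the 46 pan-endothelial genes, 30 had the higher value in the cochlear library, 6 of them at least 4-fold (Tie1, Rasip1, Esam, Nos3, Egfl7 and Exoc3l), and 1 was at least 4-fold higher in the vestibular library (Calcrl). The median log2 ratio was 0.51, and 0.24 after adjustment, beside 0.04 over all genes compared. Of all genes compared, 4.81% were at least 4-fold higher in cochlear endothelium and 6.37% in vestibular endothelium. Transcription factors that specify endothelium lay on both sides. Erg had 3599 in cochlear endothelium and 3165 in vestibular endothelium, Sox17 had 4958 in cochlear endothelium and 4502 in vestibular endothelium, and Ets1 had 28444 in cochlear endothelium and 33586 in vestibular endothelium. Sox18 had 4009 in cochlear endothelium and 1936 in vestibular endothelium (log2 1.05, adjusted -0.51), and Fli1 had 4223 in cochlear endothelium and 7507 in vestibular endothelium (log2 -0.83, adjusted -0.26). The angiopoietin receptor Tek had 11061 in cochlear endothelium and 12716 in vestibular endothelium, unlike its relative Tie1. Of the receptors for vascular endothelial growth factor, Kdr had 52166 in cochlear endothelium and 27503 in vestibular endothelium (adjusted 1.04), while Flt1 had 18735 in cochlear endothelium and 34419 in vestibular endothelium (adjusted -1.0).

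Genes of arterial identity had little net difference as a group. Of 25 that passed the filter, 3 were at least 4-fold higher in cochlear endothelium and 1 in vestibular endothelium, beside 4.81% and 6.37% of all genes. Their median log2 ratio was 0.21 (adjusted -0.20). Members of the Notch pathway lay on both sides. The ligand Jag2 had 4547 in cochlear endothelium and 939.1 in vestibular endothelium (log2 2.28, adjusted 0.88), and the receptor Notch4 had 8282 in cochlear endothelium and 1993 in vestibular endothelium (log2 2.05, adjusted 0.76). A further ligand, Jag1, had 2468 in cochlear endothelium and 3372 in vestibular endothelium (log2 -0.45, adjusted -0.33). The ligand Dll4 had 4737 in cochlear endothelium and 1758 in vestibular endothelium (log2 1.43, adjusted 0.42). The Notch target genes Hey1 and Hey2 were lower in cochlear endothelium. Hey2 had 34.4 in cochlear endothelium and 336.8 in vestibular endothelium (log2 -3.29, adjusted -3.02), although its highest value of all, 1473, was in cochlear neurons. Hey1 had 552 in cochlear endothelium and 1401 in vestibular endothelium (log2 -1.34, adjusted -2.07), and the arterial gap junction gene Gja5 had 248.3 in cochlear endothelium and 642.9 in vestibular endothelium (log2 -1.37, adjusted -2.04).

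Venous genes numbered 18 past the filter, with a median of 0.54 (adjusted 0.07). Of these, 2 were at least 4-fold higher in cochlear endothelium and 1 in vestibular endothelium, beside 4.81% and 6.37% of all genes. Both of the cochlear ones are adhesion molecules for leukocytes. Selp, which encodes P-selectin, had 134 in cochlear endothelium and stood at the floor in vestibular endothelium, at least 6.7-fold apart (adjusted 2.30), and Icam1 had 6947 in cochlear endothelium and 1191 in vestibular endothelium (log2 2.54, adjusted 1.57). A further adhesion molecule, Vcam1, lay the other way, with 207.4 in cochlear endothelium and 524.4 in vestibular endothelium (log2 -1.34, adjusted -0.13). Aplnr, the apelin receptor of veins and sprouts, had 25882 in cochlear endothelium and 67385 in vestibular endothelium (log2 -1.38, adjusted -1.81).

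Angiogenic and matrix genes leaned toward the cochlear library. Of 29 tip cell and angiogenic genes, 22 had the higher value in cochlear endothelium, with a median log2 ratio of 1.06 (adjusted 0.33). At least 4-fold higher were 3 in cochlear endothelium and 1, Esm1, in vestibular endothelium, beside 4.81% and 6.37% of all genes. The 3 were Fscn1, an actin-bundling protein (14094 in cochlear and 2077 in vestibular endothelium, log2 2.76), Pdgfb, the ligand that recruits pericytes (6188 in cochlear and 1331 in vestibular endothelium, log2 2.22), and Col4a1. Col4a1 encodes the main chain of basement membrane collagen, and its 203006 in cochlear endothelium was the top of that library's scale, against 30702 in vestibular endothelium (log2 2.73, adjusted 1.84). Its partner chain Col4a2 had 109100 in cochlear endothelium and 27889 in vestibular endothelium (log2 1.97, adjusted 0.68). In the basement membrane and matrix list of 29 genes the median was 1.17, and 0.09 after the adjustment. Col18a1, the source of endostatin, had 26234 in cochlear endothelium and 3532 in vestibular endothelium (log2 2.89, adjusted 1.60), and Col15a1 had 37392 in cochlear endothelium and 9108 in vestibular endothelium (log2 2.04, adjusted 1.15). The 3 members at least 4-fold higher in vestibular endothelium were matrix genes of connective tissue. They were Vcan, which encodes versican (107.6 in cochlear and 1018 in vestibular endothelium, log2 -3.24), Tnc, tenascin-C (186.3 in cochlear and 1290.4 in vestibular endothelium, log2 -2.79), and Lama2, a laminin chain (254.4 in cochlear and 1079.8 in vestibular endothelium, log2 -2.09).

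Genes of the blood-tissue barrier showed little difference as a set apart from Cldn5. Of 41 past the filter, 1 was at least 4-fold higher in cochlear endothelium and 0 in vestibular endothelium, beside 4.81% and 6.37% of all genes. The median log2 ratio was -0.07 (adjusted -0.21). The glucose transporter gene Slc2a1 had 35074 in cochlear endothelium and 26234 in vestibular endothelium, Mfsd2a, the lipid transporter that restrains transcytosis, had 2345 in cochlear endothelium and 1501 in vestibular endothelium, and the efflux pump gene Abcb1a had 4211 in cochlear endothelium and 6859 in vestibular endothelium. The tight junction gene Ocln was within 1.2-fold, at 1274 in cochlear endothelium and 1494 in vestibular endothelium. Among the lowest ratios was that of Slco1a4, an organic anion transporter, with 990.6 in cochlear endothelium and 3649 in vestibular endothelium (log2 -1.88, adjusted -0.74).

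The Wnt and Norrin pathway, which induces the barrier in brain and retina, had 25 members past the filter with a median of -0.20 (adjusted -0.24). Its members lay on both sides. The transcription factor gene Lef1 was close, at 2175 in cochlear endothelium and 2008 in vestibular endothelium, and the Norrin receptor gene Fzd4 had 3047 in cochlear endothelium and 4067 in vestibular endothelium. The Wnt7 coreceptor Gpr124 had 8642 in cochlear endothelium and 2307 in vestibular endothelium (log2 1.91, adjusted 0.61), and the Norrin coreceptor Tspan12 had 1386 in cochlear endothelium and 3516 in vestibular endothelium (log2 -1.34, adjusted -0.25). Beside 4.81% and 6.37% of all genes, none was at least 4-fold higher in cochlear endothelium, while 3 were higher in vestibular endothelium at low values. They were the ligand Wnt7b (27.4 in cochlear and 162.0 in vestibular endothelium), the ubiquitin ligase Rnf43 (27.8 in cochlear and 152.6 in vestibular endothelium) and the Wnt deacylase Notum (36.4 in cochlear and 191.6 in vestibular endothelium). Each had its highest value in another cell type, with 3310.3 for Wnt7b in cochlear epithelial cells, and 2503 for Rnf43 and 2924 for Notum in cochlear mesenchyme. Apcdd1, a Wnt antagonist that is itself a barrier gene, had 6669 in cochlear endothelium and 2382 in vestibular endothelium (log2 1.49, adjusted 1.93).

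Fenestration and caveola genes had a median of 0.68 over 14 members, and the adjustment turned it to -0.02. Beside Plvap, Prkcdbp (now Cavin3), a caveolar coat protein, was at least 4-fold higher in the cochlear library, with 2604 in cochlear endothelium and 583.8 in vestibular endothelium (log2 2.16, adjusted 1.11). The water channel gene Aqp1 had 219 in cochlear endothelium and 971 in vestibular endothelium (log2 -2.15, adjusted -3.11), but its highest value, 12587, was in vestibular mesenchyme. The lymphatic list held 16 genes past the filter, 2 at least 4-fold higher in cochlear endothelium and 4 in vestibular endothelium, beside 4.81% and 6.37% of all genes. Of the 4, Pdpn, Sema3a and Cldn11 passed only through the vestibular value and had their highest values in epithelial cells or mesenchyme. The remaining gene, Klhl4, had 1781 in cochlear endothelium and 7746.5 in vestibular endothelium, its highest values. The master regulator Prox1 was low in both, at 137.9 in cochlear endothelium and 269.4 in vestibular endothelium, and the hyaluronan receptor gene Lyve1 had 159 in cochlear endothelium and 284.8 in vestibular endothelium. Stab1, a scavenger receptor, had 8423 in cochlear endothelium and 1678 in vestibular endothelium (log2 2.33, adjusted 1.64).

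In the response to BMP and TGF-beta, 3 of 23 genes were at least 4-fold higher in cochlear endothelium and 0 in vestibular endothelium, beside 4.81% and 6.37% of all genes, with a median of 0.54. After adjustment the counts were 1 and 1 and the median was -0.14. Acvrl1, the endothelial BMP9 receptor ALK1, had 8613 in cochlear endothelium and 1923 in vestibular endothelium (log2 2.16, adjusted 1.06). The ligand Tgfb1 had 2794 in cochlear endothelium and 654.3 in vestibular endothelium (log2 2.09, adjusted 1.40). Flow-response genes had a median of -0.27 over 20 members, with the shear-induced factor Klf2 at 9448 in cochlear endothelium and 2914 in vestibular endothelium (log2 1.70, adjusted 0.14). Genes of MHC and interferon had a median of -0.17 over 31 members (adjusted -0.48). At its extremes were Tap2, a peptide transporter of antigen presentation, with 1049 in cochlear endothelium and 135.5 in vestibular endothelium (log2 2.95, adjusted 1.84), and Ifitm1, an interferon-induced membrane protein, with 21.8 in cochlear endothelium and 186.9 in vestibular endothelium (log2 -3.10, adjusted -3.55). Ifitm1 had its highest value, 442.5, in cochlear mesenchyme.

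**Figure D4:**
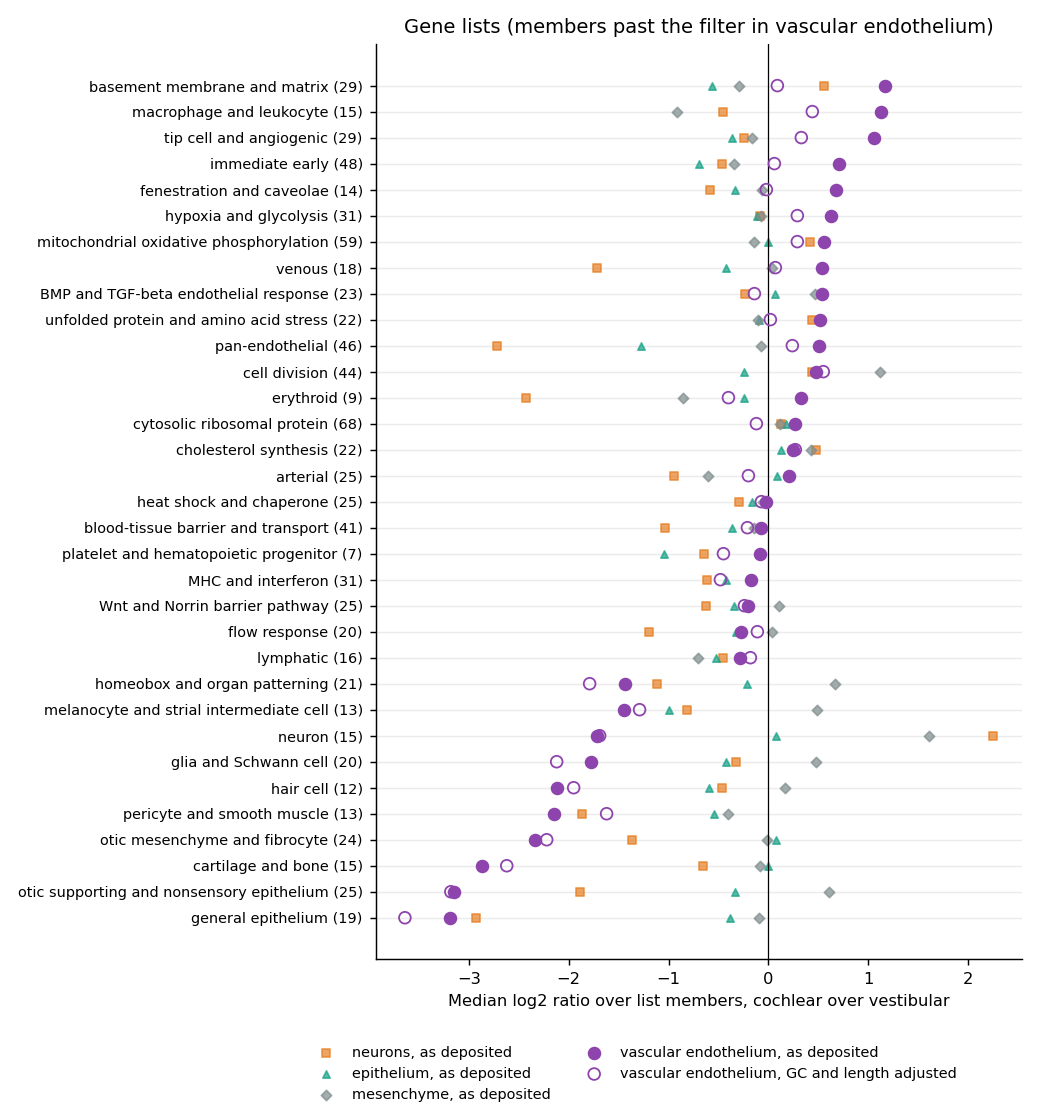
Median log2 ratio, cochlear over vestibular, for gene lists in the 4 cell types, with the number of members past the filter in vascular endothelium in brackets. Filled purple circles are the endothelial values as deposited and open circles those after the GC and length adjustment. Lists of endothelial and general cell functions have filled circles between -0.28 and 1.17, while most lists of other inner ear cell types lie below -1 with either circle, although many of their members passed the filter only through the vestibular value.

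Dissociation and sorting can switch on stress genes, and their values stand beside the vessel genes. In the heat shock and chaperone list of 25 genes the median log2 ratio was -0.02. At least 4-fold higher were 3 genes in cochlear endothelium and 3 in vestibular endothelium, beside 4.81% and 6.37% of all genes. The cochlear ones are heat-inducible. Hspa1a and Hspa1b encode near-identical copies of the chaperone HSP70 and Hspb1 encodes HSP27, a small heat shock protein. Their promoters are shown because heat shock factors bind inverted repeats of GAA, and the capitals mark each match to GAANNTTC, which reads the same on both strands, within the 150 bases before the start of the RefSeq gene (GRCm38.p6). The stretches are chr17:34972157-34972306 on the minus strand for Hspa1a, chr17:34959239-34959388 on the minus strand for Hspa1b, and chr5:135887769-135887918 on the plus strand for Hspb1, each written 5′ to 3′.
Hspa1a: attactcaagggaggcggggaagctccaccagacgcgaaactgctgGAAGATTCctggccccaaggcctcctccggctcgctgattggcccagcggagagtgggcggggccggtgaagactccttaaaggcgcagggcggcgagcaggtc
Hspa1b: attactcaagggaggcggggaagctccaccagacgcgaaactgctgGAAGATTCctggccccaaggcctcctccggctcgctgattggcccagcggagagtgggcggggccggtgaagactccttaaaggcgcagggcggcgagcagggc
Hspb1: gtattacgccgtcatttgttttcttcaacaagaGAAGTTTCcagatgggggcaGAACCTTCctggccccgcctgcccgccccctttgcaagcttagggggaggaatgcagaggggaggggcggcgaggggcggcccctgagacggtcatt

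The motif begins 104 bases before the start in both Hspa1 copies, and 117 and 97 bases before the start in Hspb1. Of 32851 RefSeq promoters, 1297 (3.95%) hold it in the same 150 bases, and of the 20 heat shock list genes matched to a promoter, 6 do. A match describes the sequence and not binding. The Hspa1a and Hspa1b stretches differ at 1 of 150 bases, and since their transcripts are also near-identical the split of reads between them is uncertain. Hspa1b had 11975 in cochlear endothelium and 644 in vestibular endothelium (log2 4.22, adjusted 2.95), and Hspa1a had 10937 in cochlear endothelium and 653.5 in vestibular endothelium (log2 4.06, adjusted 2.80). The next highest values of both genes were in neurons, with 2667 for Hspa1b in cochlear neurons and 1762 in vestibular neurons. Hspb1 had 1601 in cochlear endothelium and 196.9 in vestibular endothelium (log2 3.02, adjusted 1.49), and its ratio was negative in the other 3 cell types. Gm20481, a gene model that overlaps Hspa1a, had 5949 in cochlear endothelium and 257.1 in vestibular endothelium (log2 4.53), and the reads of overlapping genes cannot be told apart where strand was not used.

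Other chaperones did not share this. Hsp90ab1, a constitutive HSP90, had 41509 in cochlear endothelium and 19361 in vestibular endothelium (log2 1.10, adjusted 0.62), while the inducible Hsp90aa1 had 1139 in cochlear endothelium and 2102 in vestibular endothelium (log2 -0.88, adjusted -0.14). The cochaperone Bag3, a heat shock factor target, differed little, at 829 in cochlear endothelium and 711.1 in vestibular endothelium (log2 0.22). Lowest of the list was Dnajb4, an HSP40, with 432 in cochlear endothelium and 2577 in vestibular endothelium (log2 -2.58, adjusted -1.53), and Cryab, a small heat shock protein of muscle and lens, had 93.6 in cochlear endothelium and 459.4 in vestibular endothelium (log2 -2.30, adjusted -3.11).

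Immediate early genes, which respond within minutes to stimulation or handling, were split by member. Of 48 past the filter, 34 had the higher value in cochlear endothelium, with a median of 0.71. At least 4-fold higher were 7 in cochlear endothelium and 1 in vestibular endothelium, beside 4.81% and 6.37% of all genes. After the adjustment the median was 0.06 and the counts at least 4-fold apart were 0 and 2. Junb, an AP-1 subunit, had 15906 in cochlear endothelium and 1921 in vestibular endothelium (log2 3.05, adjusted 1.49), and Jund had 6801 in cochlear endothelium and 874.6 in vestibular endothelium (log2 2.96, adjusted 1.40). Fos, the best known member, was high in both, at 34419 in cochlear endothelium and 25534 in vestibular endothelium (log2 0.43, adjusted -0.27). Egr1 had 12716 in cochlear endothelium and 24261 in vestibular endothelium (log2 -0.93, adjusted -1.97), and Egr2, which is also a Schwann cell factor, had 337.6 in cochlear endothelium and 1851 in vestibular endothelium (log2 -2.46, adjusted -2.93). The part of dissociation in the vessel ratios was not tested.

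Hypoxia and unfolded protein genes had positive medians, 0.63 over 31 genes (adjusted 0.29) and 0.52 over 22 genes (adjusted 0.02). Ddit4, a stress-induced inhibitor of mTORC1, had 5015 in cochlear endothelium and 635.6 in vestibular endothelium (log2 2.98, adjusted 1.72). Trib3, a target of the amino acid stress factor ATF4, had 177.1 in cochlear endothelium and stood at the floor in vestibular endothelium, at least 8.85-fold apart. Aldoc, an aldolase of brain and sensory epithelium, lay apart from the other glycolytic genes, with 21.5 in cochlear endothelium and 402.4 in vestibular endothelium (log2 -4.23, adjusted -4.92), and its highest value, 5371, was in vestibular epithelial cells.

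Markers of most other inner ear cells were higher in the vestibular endothelial library. Since many of the epithelial and hair cell genes reached 100 only in the vestibular library, the counts and medians of this and the next paragraph cover every member in the table, without the filter. Of the 11782 genes past the filter, 4.81% were at least 4-fold higher in cochlear endothelium and 6.37% in vestibular endothelium. Those shares leave out genes low in both libraries, so their base is unlike that of the counts here. In general epithelium, 4 genes reached 100 in cochlear endothelium and 19 in vestibular endothelium. Of all 32 genes, 0 were at least 4-fold higher in cochlear endothelium and 17 in vestibular endothelium, with a median log2 ratio of -2.31. The list's summed value was 4341.5 in cochlear endothelium and 9586 in vestibular endothelium, and without Lsr, a tricellular junction gene that brain endothelium also expresses, 1308 in cochlear endothelium and 8137 in vestibular endothelium. In this list 11 genes stood at the floor in cochlear endothelium against 5 in vestibular endothelium. The keratin gene Krt18 had 62.3 in cochlear endothelium and 663.1 in vestibular endothelium, and the splicing factor gene Esrp1 stood at the floor in cochlear endothelium with 229 in vestibular endothelium. Supporting and nonsensory cells of the ear had 18 of 35 genes at least 4-fold higher in vestibular endothelium and 0 in cochlear endothelium (median -2.18). Tecta, which encodes alpha-tectorin of the membranes over the sensory patches, had 157.8 in cochlear endothelium and 2414 in vestibular endothelium (log2 -3.94), and Oc90, a protein of the otoconia, had 461.9 in cochlear endothelium and 6170.4 in vestibular endothelium (log2 -3.74). Hair cell genes were mostly low in both libraries, with 6 of 37 at least 4-fold higher in vestibular endothelium and a median of -0.19, among them the synaptic gene Otof (25.1 in cochlear and 208.3 in vestibular endothelium).

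Connective tissue genes had the same direction. Of 36 genes of otic mesenchyme, 1 was at least 4-fold higher in cochlear endothelium and 15 in vestibular endothelium (median -1.49), and the summed value was 12340 in cochlear endothelium and 44049 in vestibular endothelium. Coch, which encodes the fibrocyte matrix protein cochlin, had 116.3 in cochlear endothelium and 3849.5 in vestibular endothelium (log2 -5.05, adjusted -4.95), and Otor, otoraplin, had 408 in cochlear endothelium and 10201 in vestibular endothelium (log2 -4.64). Cartilage genes had 13 of 25 at least 4-fold higher in vestibular endothelium (median -2.25) and glial genes 7 of 28 (median -1.44). Pericyte genes lay on both sides, with 8 of 25 at least 4-fold higher in vestibular endothelium but a median of -0.17. Among them Rgs5 had 128.5 in cochlear endothelium and 1751 in vestibular endothelium (log2 -3.77), with its highest value, 147260, in vestibular neurons, and Mcam, which endothelium also expresses, had 16184 in cochlear endothelium and 4833 in vestibular endothelium (log2 1.74). Fabp7, a lipid-binding protein of glia, had 280.6 in cochlear endothelium and 2289.8 in vestibular endothelium (log2 -3.03). Of 36 leukocyte genes, 22 were higher in cochlear endothelium and 7 in vestibular endothelium (median 0.45). At least 4-fold higher were 5 in cochlear endothelium and 0 in vestibular endothelium. The shares of 4.81% and 6.37% are of genes past the filter, while these counts are without it. The macrophage receptor gene Csf1r had 641 in cochlear endothelium and 122 in vestibular endothelium (log2 2.39, adjusted 1.72), and the complement gene C1qb had 195.8 in cochlear endothelium and 24.5 in vestibular endothelium (log2 3.0). The lysozyme gene Lyz2 was on the other side, with 59.1 in cochlear endothelium and 171 in vestibular endothelium (log2 -1.53), and the pan-leukocyte gene Ptprc was under 100 in both.

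These markers were then set against a library of another sorted cell type of the same organ. Genes of general epithelium reached a median of 1.37% of their cochlear epithelial value in cochlear endothelium and 5.44% of their vestibular epithelial value in vestibular endothelium. Genes of supporting and nonsensory epithelium reached 1.8% in cochlear endothelium and 10.9% in vestibular endothelium, and those of mesenchyme reached 4.67% in cochlear endothelium and 11.3% in vestibular endothelium. The medians of hair cell genes (7.86% in cochlear and 9.63% in vestibular endothelium) and of pericyte genes, against neurons (12.5% in cochlear and 13.7% in vestibular endothelium), were close. Of the hair cell genes, 15 of 33 stood at the floor in cochlear endothelium and 5 of 33 in vestibular endothelium. Their cochlear median is therefore largely an upper estimate and does not show that the libraries were level. Leukocyte genes, against neurons, reached 111% in cochlear endothelium and 33.2% in vestibular endothelium, and erythroid genes, against mesenchyme, 8.73% in cochlear endothelium and 5.5% in vestibular endothelium. The percentages are upper estimates for genes at the floor of 20. Neuron genes reached 9.17% in cochlear endothelium (24 genes) and 83.5% in vestibular endothelium (13 genes), but the vestibular neuron library itself was low in them, with a median log2 ratio for this list of 2.25 between cochlear and vestibular neurons. That library also carried vessel genes, since 36 of the 44 pan-endothelial genes past the filter there were at least 4-fold higher in vestibular than in cochlear neurons, beside 3.52% of all genes. The part of these other cells in the vessel ratios was not tested.

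**Figure D5:**
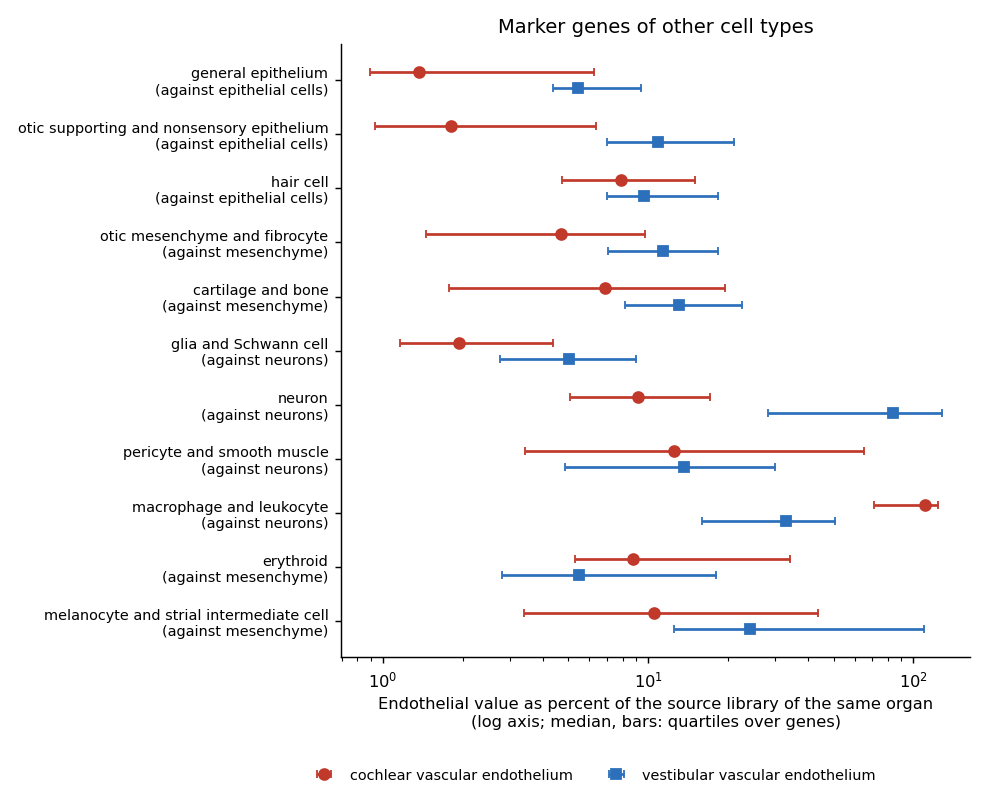
Value of marker genes of other cell types in vascular endothelium as a percent of their value in the library named in brackets from the same organ (log axis), with medians as points and quartiles over genes as bars. The vestibular medians (blue squares) lie right of the cochlear medians (red circles) for epithelial, mesenchymal, cartilage, glial, neuron and melanocyte genes, nearly level for hair cell and pericyte genes, and left for leukocyte and erythroid genes. Of 33 hair cell genes in each organ, 15 stood at the floor in cochlear endothelium and 5 in vestibular endothelium.

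The library in which a gene was highest was also counted. Of the 567 genes at least 4-fold higher in cochlear endothelium, 440 (77.6%) had their highest cochlear value in endothelium, beside 37.3% of all genes compared. Of the 750 genes at least 4-fold higher in vestibular endothelium, 215 (28.7%) had their highest vestibular value in endothelium, near the 32.4% of all genes. The others were highest in epithelial cells (271, or 36.1%, beside 21.1% of all genes), mesenchyme (152, or 20.3%, beside 27.7%) and neurons (112, or 14.9%, beside 18.7%). On either side, choosing genes by a high value in endothelium favours its share. With the adjusted ratio as well, 108 genes of the cochlear side and 52 of the vestibular side were both at least 4-fold apart and highest in endothelium.

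Without any selection, the largest ratios on the vestibular side belonged mostly to genes of vestibular epithelium. Zpld1, a zona pellucida domain protein, had 28.6 in cochlear endothelium and 1267.5 in vestibular endothelium (log2 -5.47), against 17309 in vestibular epithelial cells. Aldh1a1, a retinoic acid synthesizing enzyme, had 24.9 in cochlear endothelium and 1053 in vestibular endothelium (log2 -5.40), against 10628 in vestibular epithelial cells. Nox3, the oxidase needed for otoconia, stood at the floor in cochlear endothelium with 562.5 in vestibular endothelium, at least 28.1-fold apart, and Sfrp5, a secreted Wnt inhibitor, had 23.5 in cochlear endothelium and 654.8 in vestibular endothelium (log2 -4.80). Both were also lower in cochlear than in vestibular epithelial cells, with Nox3 at 286.1 in cochlear and 9050.3 in vestibular epithelial cells. The claudin gene Cldn8 (log2 -5.21) and the adhesion gene Mpzl2 (log2 -4.95) were highest in epithelial cells too, where their log2 ratios were -1.66 and -0.26. Hist1h1e, a linker histone gene, had 24.8 in cochlear endothelium and 924.3 in vestibular endothelium (log2 -5.22), 1841 in vestibular neurons, and stood at the floor in the other 5 libraries. Of 20 replication-dependent histone genes in the table, grouped after these values were seen, 13 passed the filter. Of the 13, 0 were at least 4-fold higher in cochlear endothelium and 9 in vestibular endothelium, beside 4.81% and 6.37% of all genes. Hist1h1e is counted among them and passed only through its vestibular value, so the count is not independent of the values that prompted it. Transcripts of replication-dependent histone genes lack a poly(A) tail, unlike most mRNA.

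On the cochlear side many of the largest ratios without selection were of short, GC-rich or poorly annotated transcripts. Crlf2, a cytokine receptor for TSLP, had 489.4 in cochlear endothelium and stood at the floor in vestibular endothelium (at least 24.5-fold, adjusted 3.08), and its highest other value was 234.3, in vestibular mesenchyme. Haus8, a subunit of the augmin complex of the spindle, had 380.5 in cochlear endothelium and stood at the floor in vestibular endothelium (at least 19.0-fold, adjusted 5.01), with 517.6 in cochlear neurons. Its transcript is AT-rich, so the adjustment raised the ratio. Scand1, a SCAN domain protein, had 603.9 in cochlear endothelium and 26.5 in vestibular endothelium (log2 4.51, adjusted 2.98). Gm10382 had 722.9 in cochlear endothelium and stood at the floor both in vestibular endothelium and in vestibular neurons, with 394.8 to 607.1 in the other 5 libraries. The pseudogene Rps12-ps3 had 957.1 in cochlear endothelium and 41.3 in vestibular endothelium, and it was also low in vestibular neurons, at 61.5, against 729.8 or more elsewhere.

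Between organs, the endothelial ratio often matched that of neurons. Across 9896 genes measured in all pairs, the endothelial ratio had a Spearman correlation of 0.69 with the neuron ratio, -0.23 with the epithelial ratio and -0.16 with the mesenchymal ratio, and after adjustment in each pair these were 0.54, -0.04 and -0.01 over 9809 genes. Genes in a pair share the same libraries and base composition and are not independent. The genes whose endothelial ratio departed most from the mean of the other 3 included Cldn5, with log2 ratios of 3.85 in endothelium, -1.50 in epithelial cells, -0.49 in mesenchyme and -3.32 in neurons. Cldn5 was barely measured in epithelial cells and mesenchyme, with cochlear values at the floor and vestibular values of 56.4 and 28.1. Its neuron values were 105.6 in cochlear and 1056.5 in vestibular neurons, and the vestibular neuron library also carried other vessel genes. C130074G19Rik had 24900 in cochlear endothelium and 5124.5 in vestibular endothelium (log2 2.28, adjusted 1.32), while its ratio was -2.53 in epithelial cells, -2.12 in mesenchyme and -3.51 in neurons. In epithelial cells this gene stood at the floor in the cochlear library, with 115.8 in the vestibular one. Tnfaip2, induced by tumour necrosis factor in endothelium, had 1136 in cochlear endothelium and 403.6 in vestibular endothelium (log2 1.49, adjusted 0.39), against -5.15 in epithelial cells. In the vestibular direction, Fgf10, a growth factor of the otic epithelium, stood at the floor in cochlear endothelium with 259.9 in vestibular endothelium (at least 13.0-fold), while its ratio was 0.69 in epithelial cells and 2.55 in mesenchyme. For none of these was the difference between cell types tested.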

How the data were processed

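Cells of inner ears from ICR mice at postnatal day 0 were sorted and 1 mRNA-seq library was made per cell type and organ (8 libraries). The deposited table holds 15275 genes as a normalized signal per gene that the authors computed from aligned reads, with the aligner TopHat 1.0.0 on the build GRCm38 listed by the submitters. How reads were counted and scaled, whether strand was used and whether values were divided by gene length are not given in the sources used here, so levels were compared across libraries and not between genes. The table's columns of means and cluster numbers were not used. Counts had been allowed for in the plan, and the signal was used in the same ratio.

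Identifiers were matched to GENCODE vM21 (15030 of 15275), which gave coordinates, transcript length and GC content, and 20 symbols turned into dates were restored from them. The log2 ratio had no pseudocount and genes needed a higher value of at least 100. The adjusted ratio subtracts the median of 20 GC bins and then 10 length bins. Gene lists (35) were written by hand. The comparison, lists and rules were chosen with earlier results of these data known. Named genes come from the markers and sorting antigens, the 10 largest ratios in each direction among all genes and among endothelium-enriched genes, up to 4 per list, endothelial list members at least 4-fold apart, and the 5 largest departures from the other cell types in each direction. Further list members, given for their role, were named after their values were seen, as was Lars2, which comes from none of these rules. Some named genes are not reported here. Alternatives were other filters (none, 50 and 500), pseudocounts (1 and 20), centring, enrichment margins (1 and 3) and means in place of medians. The adjustment, and the restriction to genes highest in endothelium, were added after the data were seen, as was the count of list members without the filter. Scripts ran in Python 3.11.15 with pandas 2.3.3 and numpy 2.4.6 and were tested on simulated data. Promoter sequences are those of RefSeq for GRCm38.p6.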

Additional observations from a re-analysis of the deposited data

Results flagged for a closer look

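Several endothelial ratios lay on the other side of 0 from every other cell type, a difference that was not tested since each pair holds 1 library per organ. The medians were 1.06 for tip cell and angiogenic genes, 0.68 for fenestration and caveola genes, 0.71 for immediate early genes and 0.63 for hypoxia and glycolysis genes, all toward cochlear endothelium, and -1.72 for the neuron genes past the filter, toward vestibular endothelium. After the GC and length adjustment they were 0.33 for tip cell, -0.02 for fenestration, 0.06 for immediate early and 0.29 for hypoxia genes, and over all 32 neuron genes, without the filter, the median was 0.0. Some medians of the other cell types were close to 0. For hypoxia genes they were -0.11 in epithelial cells, -0.07 in mesenchyme and -0.08 in neurons, and 0.04 in neurons after adjustment. For immediate early genes they were further away, at -0.69 in epithelial cells, -0.34 in mesenchyme and -0.46 in neurons.

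Among named genes, 7 were higher in the cochlea in endothelium and at least 1.5-fold higher in the vestibular organs in each other cell type. Their endothelial log2 ratios were 4.46 for Gm9817, 3.02 for Hspb1, 2.65 for Esam, 2.55 for 1200009I06Rik (now Exoc3l4, an exocyst-like protein), 2.28 for C130074G19Rik, 2.28 for Jag2 and 2.05 for Notch4. Gm9817 kept its ratio after adjustment (4.56), while those of Notch4 (0.76) and Jag2 (0.88) fell under 1.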

How the results depend on the processing

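No paired analysis was possible because each group holds 1 library, and no replicate could be left out. The number of genes at least 4-fold higher in cochlear vascular endothelium was 567. It was 241 with a higher value of at least 500, 367 with a pseudocount of 20, 163 after the GC and length adjustment, and 108 with the adjustment and the restriction to genes highest in endothelium. The number of genes at least 4-fold higher in vestibular vascular endothelium was 750, and 362 with a higher value of at least 500, 215 with the restriction, and 52 with both. Among endothelium-enriched genes the cochlear count of 39 was 6 after adjustment, 80 at a margin of 1 and 18 at a margin of 3, and the vestibular count of 26 was 10, 48 and 15 under the same settings. After adjustment 5 of the 35 list medians changed side, to -0.02 for fenestration and caveola genes, -0.20 for arterial, -0.14 for BMP and TGF-beta, -0.40 for erythroid and -0.12 for ribosomal protein genes. The skeletal muscle list had a median of -1.59 over 3 genes, and 1.59 when the filter was lowered to 50, which let in further members. Of 182 named genes, 140 moved under the adjustment by more than 1.5-fold or changed side, and 51 moved with a pseudocount of 20, while centring and a pseudocount of 1 moved none of them. Depth is unknown, so low values carry an error that cannot be stated.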

Other observations

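Several general cell functions were also read from the endothelial pair. Genes of cell division had a median log2 ratio of 0.48 over 44 members, with 34 higher in cochlear endothelium, and it was 0.55 after the GC and length adjustment. Aurka, a mitotic kinase, had 428.5 in cochlear endothelium and 98.4 in vestibular endothelium (log2 2.12, adjusted 1.65), and Birc5, which encodes survivin of dividing cells, had 637.5 in cochlear endothelium and 248.3 in vestibular endothelium (log2 1.36, adjusted 1.5). Genes of mitochondrial oxidative phosphorylation had a median of 0.56 over 59 members (adjusted 0.29), with 0 at least 4-fold apart in either direction. Cytosolic ribosomal protein genes had a median of 0.27 over 68 members (adjusted -0.12), and genes of cholesterol synthesis had 0.25 over 22 (adjusted 0.27).

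Of 39 homeobox and patterning genes in the table, counted without the filter, 1 was at least 4-fold higher in cochlear endothelium and 11 in vestibular endothelium, with a median of -0.72, beside 4.81% and 6.37% of all genes past the filter. Tbx1, which is expressed in the otic vesicle and the mesenchyme around it, had 1153 in cochlear endothelium and 258.3 in vestibular endothelium (log2 2.16, adjusted 0.59). Melanocyte genes, counted in the same way, had 1 of 20 at least 4-fold higher in cochlear endothelium and 5 in vestibular endothelium (median -1.41), the vestibular ones including Dct, a pigment enzyme, with 77.6 in cochlear endothelium and 672.4 in vestibular endothelium (log2 -3.12). Platelet genes had a median of 0.08 over 12 members and erythroid genes 0.0 over 15. The 4 Y-linked genes measured were present in both libraries and all higher in vestibular endothelium, as with Uty at 245.1 in cochlear endothelium and 1288 in vestibular endothelium, with a median of -1.66 that was -0.33 after adjustment.

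Lars2, which encodes the mitochondrial leucyl-tRNA synthetase, had 5437 in cochlear endothelium and 98907 in vestibular endothelium (log2 -4.19, adjusted -4.62). Its log2 ratio was -0.84 in epithelial cells, -0.99 in mesenchyme and -1.40 in neurons.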
